A study of Mus musculus with 6 samples.

Results

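Synaptotagmins are proteins with a pair of C2 domains that sit on vesicles, lysosomes or the plasma membrane and act in membrane fusion and membrane traffic. In several of them the C2 domains bind calcium and then lipid membranes and SNARE proteins, which links a calcium signal to release of vesicle contents. Others lack the residues that bind calcium and act in traffic without it. In brain the family is best known from neurons, where its members serve synaptic vesicles, dense-core vesicles and lysosomes. Described here are 10 synaptotagmin genes, Syt1, Syt3, Syt4, Syt5, Syt6, Syt7, Syt9, Syt11, Syt13 and Syt17, out of 17 synaptotagmin genes and 17551 genes in the count table. The 10 genes were chosen by name with the values of the genotype contrast already known, so their levels are given as a description and no test of the contrast is drawn from them.

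RNA-seq of total RNA was made from 6 mouse neurosphere cultures, which are cells with stem and progenitor traits grown as floating spheres. Whether they came from normal tissue or from a tumour is not stated here. The mutant cultures (G328V, replicates 1, 2 and 3) carry the genotype label ACVR1 G328V, a mutant form of the BMP receptor ACVR1, and the control cultures (WT, replicates 1, 3 and 70A) carry the label ACVR1 WT. All 6 share the C57BL/6 strain label and a DMEM/F12 medium with N2, B27, EGF and FGF. The labels used here do not give the age, how the mutant receptor was introduced, its promoter, or whether a culture is 1 clone, and they do not tie the replicates to separate animals. Any p-value therefore measures the spread among these 6 libraries.

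The libraries held 115953495 to 182626231 counts in the G328V group and 120457925 to 191115532 counts in the WT group, in which about 2 counts stand for each fragment. Levels below are CPM, counts scaled to each library's TMM-adjusted total. Acvr1, the labelled gene, had 244, 250 and 650 CPM in G328V replicates 1, 2 and 3, and 42.4, 100 and 90.7 CPM in WT replicates 1, 3 and 70A. Xist, transcribed from the inactive X chromosome, had 76093 to 128424 counts in the G328V libraries and 44 to 206 counts in the WT libraries. Ddx3y, a gene of the Y chromosome, had 0 to 6 counts in the G328V libraries and 3119 to 7122 counts in the WT libraries, so genotype and sex-linked expression separate the same groups and cannot be told apart in any difference below. Sox2, a neural stem cell marker, was present at 145 to 237 CPM in the G328V libraries and 134 to 179 CPM in the WT libraries. WT replicate 1 stood apart: Olig1, an oligodendrocyte lineage factor, had at most 1.07 CPM in the G328V libraries and 615, 0.0455 and 0.138 CPM in WT replicates 1, 3 and 70A. Log2 differences of synaptotagmins that rest on that library are also given without it.

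Most of the 10 genes varied widely between cultures of the same genotype. Syt13 was the only 1 of the 10 genes whose groups did not overlap, with every G328V library below every WT library. Syt4 and Syt11 spanned wide ranges inside both groups, Syt7 was present at a substantial level in every library, and Syt9 was close to absent in 4 of the 6. The edgeR quasi-likelihood test with Benjamini-Hochberg adjustment over 14643 genes called 0 of the 9 members that passed the filter on low counts, and 0 genes in all (0.0% of those tested), with 594 genes at an unadjusted p under 0.05. DESeq2, an alternative test, called 1 member, Syt13, lower in G328V, where it called 79 of 16521 genes (0.478%) in that direction and 173 (1.05%) in either. DESeq2 also made calls in counts simulated from these libraries with no gene changed, where edgeR made none. Those counts were drawn with the spread of each gene that edgeR had fitted, so they cannot show whether the call of Syt13 is false. Non-overlap with G328V lower occurred in 652 of 14643 genes (4.45%) and with G328V higher in 769 (5.25%), beside 1 and 0 of the 9 tested members. Since the members were chosen with this contrast known, nothing is read from these counts. The cultures are bulk samples, so fewer cells of a type and less RNA per cell cannot be told apart.

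**Figure D1:**
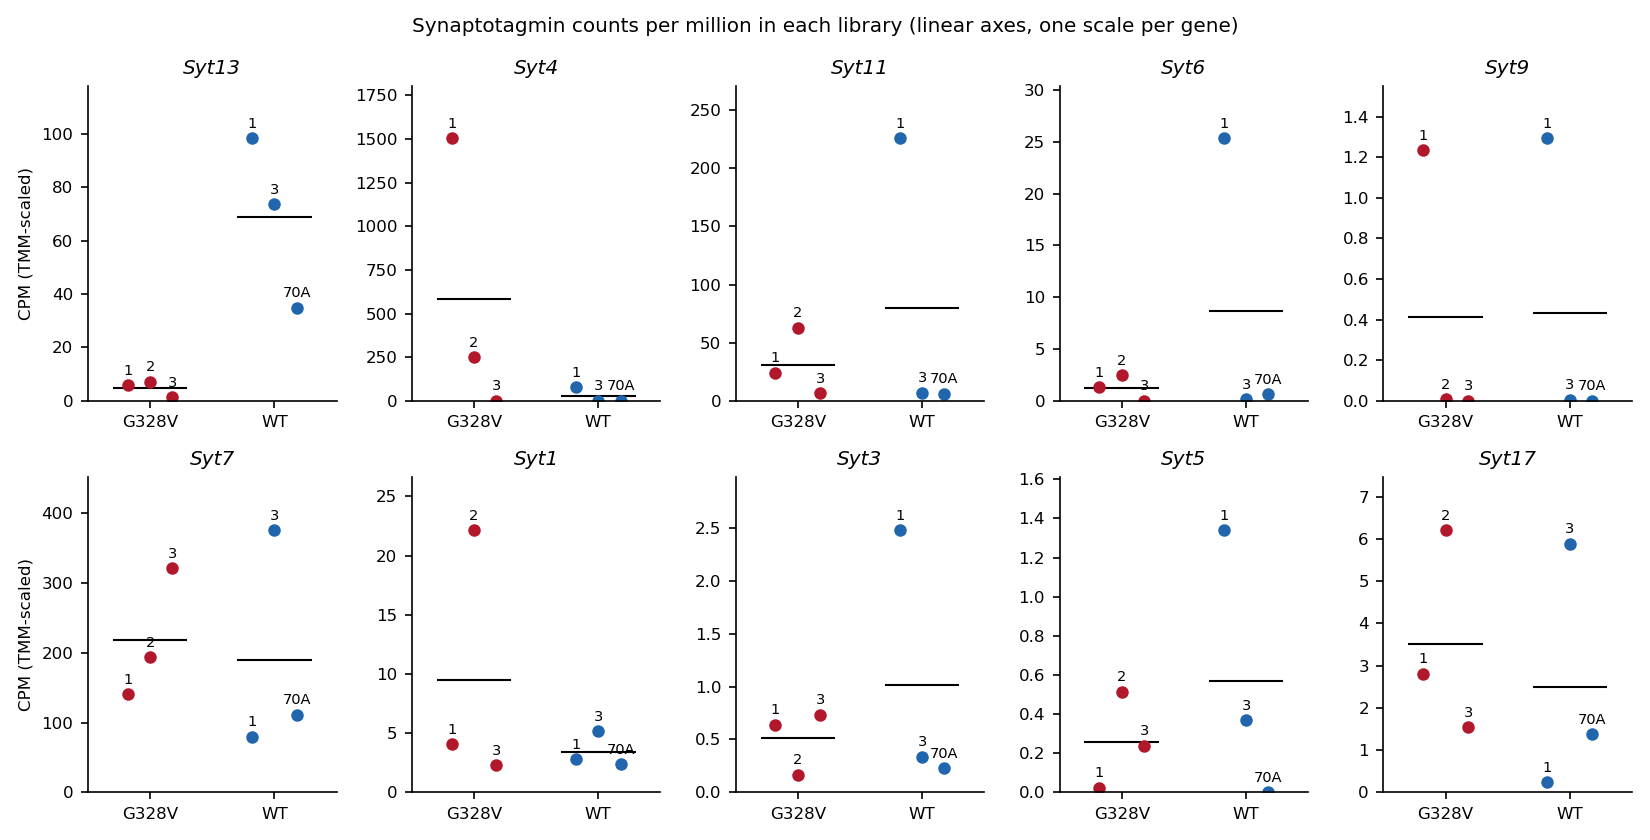
CPM of the 10 synaptotagmin genes on linear axes with a scale for each gene, with 1 point for each library, marked by its replicate number, and a line at each group's mean, G328V left of WT. Only the Syt13 panel shows G328V points (1.42 to 7.23 CPM) wholly below the WT points (34.9 to 98.2 CPM).

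Syt13 encodes an atypical synaptotagmin without calcium binding, which in mouse acts in the departure of endocrine cells from the pancreatic epithelium. The gene lies on the plus strand at chr2:92915098-92956058 (GRCm38). Syt13 had 994, 871 and 261 counts in G328V replicates 1, 2 and 3, against 12091, 12953 and 6075 counts in WT replicates 1, 3 and 70A. On the CPM scale that is 5.79, 7.23 and 1.42 in the G328V libraries, against 98.2, 73.6 and 34.9 in the WT libraries. The lowest WT library thus lay above the highest G328V library, and G328V replicate 3 was the lowest of all 6. Means were 4.82 ± 3.03 CPM in G328V and 68.9 ± 31.9 CPM in WT (SD, n = 3 each), with a fitted log2 difference, G328V minus WT, of -3.84 (SE 0.75). Leaving out 1 library at a time kept the log2 difference between -4.26 and -3.40. With the replicate number as a block, which draws only on replicates 1 and 3 of each group, it was -4.89. DESeq2, which called Syt13, gave a log2 difference of -3.86, and edgeR did not call it, so the call depends on the test.

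Syt4 and Syt11 are each other's closest relatives, and both are synaptotagmins with reduced or no calcium binding in their C2 domains. Syt4 is found on dense-core vesicles and the Golgi and is induced by activity in neurons, whereas Syt11 acts in vesicle retrieval and autophagy. Syt4, on chromosome 18, had 1502, 251 and 1.89 CPM in G328V replicates 1, 2 and 3, against 79.0, 1.30 and 1.07 in WT replicates 1, 3 and 70A. Both G328V replicates 1 and 2 lay above every WT library, but G328V replicate 3 lay below WT replicate 1, so the groups overlapped. The highest Syt4 library exceeded the lowest by 1398-fold, and within G328V alone the counts ran from 348 to 257772. The means were 585 ± 804 CPM in G328V and 27.1 ± 44.9 CPM in WT (SD, n = 3 each), and the log2 difference was 4.43 (SE 2.55). Without WT replicate 1 it was 8.94, and without G328V replicate 1 it was 2.22. In the fit without WT replicate 1 DESeq2 called Syt4, as it did 727 of 17038 genes. EdgeR without that library did not call Syt4 (adjusted p = 0.677). An antisense gene, Gm26658, overlaps exons of Syt4, and no label or header says whether counting used strand, so reads of that pair cannot be told apart. The same holds for the overlaps named below.

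Syt11, on the minus strand at chr3:88744700-88775164, had 24.2, 63.0 and 6.43 CPM in G328V replicates 1, 2 and 3, against 225, 6.92 and 6.19 in WT replicates 1, 3 and 70A. One WT library was the highest of all and the other two WT libraries were near the lowest G328V library. The means were 31.2 ± 28.9 CPM in G328V and 79.5 ± 126 CPM in WT (SD, n = 3 each), and the WT mean rests on WT replicate 1. The log2 difference was -1.35 (SE 1.55) over all libraries and 2.23 without WT replicate 1.

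Syt7 encodes a calcium sensor of high affinity that acts in asynchronous and sustained transmitter release, in lysosome exocytosis and in repair of the plasma membrane. It lies on the plus strand at chr19:10389090-10453180, where the non-coding gene Gm26859 overlaps its exons on the other strand. Syt7 had 140, 194 and 321 CPM in G328V replicates 1, 2 and 3, against 79.5, 376 and 111 in WT replicates 1, 3 and 70A. The highest and the lowest library were both WT, and the 3 G328V libraries lay between them. Its 4.72-fold range was the narrowest among the 7 members with over 3 counts in every library. Means were 218 ± 93.0 CPM in G328V and 189 ± 163 CPM in WT (SD, n = 3 each), and the log2 difference of 0.21 (SE 0.66) was below its error. It moved between -0.18, without G328V replicate 3, and 1.18, without WT replicate 3, and was -0.17 without WT replicate 1.

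Syt1 and Syt9 encode calcium sensors for fast, synchronous release of neurotransmitter from synaptic vesicles, Syt1 widely and Syt9 in a subset of forebrain neurons. Syt1, on the minus strand at chr10:108497650-109010982, had 4.09, 22.2 and 2.32 CPM in G328V replicates 1, 2 and 3, against 2.79, 5.17 and 2.36 in WT replicates 1, 3 and 70A. One library, G328V replicate 2, stood above the other five, whose values lay between 2.32 and 5.17 CPM. The log2 difference of Syt1 was 1.47 (SE 0.98) with that library and -0.10 without it. With the replicate number as a block, in which G328V replicate 2 does not inform the difference, it was -0.30.

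Syt9, on the plus strand at chr7:107370728-107548656, had 212, 1 and 0 counts in G328V replicates 1, 2 and 3, against 159, 1 and 0 counts in WT replicates 1, 3 and 70A. It had more than 1 count in 1 library of each group, at 1.24 CPM in G328V replicate 1 and 1.29 CPM in WT replicate 1, and did not pass the filter on low counts. A count of 0 allows up to 3 counts, which is 0.0163 CPM in G328V replicate 3 and 0.0172 CPM in WT replicate 70A, and such floors cover counting error only.

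Syt3, Syt5 and Syt6 are calcium-binding members outside the fast sensors. In rodents Syt3 acts in removal of AMPA receptors from the synapse, Syt5 is found on dense-core vesicles, and Syt6 acts in the acrosome reaction of sperm. Syt6, on the plus strand at chr3:103575231-103645569, had 1.30, 2.48 and 0.0163 CPM in G328V replicates 1, 2 and 3, against 25.3, 0.153 and 0.638 in WT replicates 1, 3 and 70A. WT replicate 1 was again far above the rest, and the other WT libraries lay inside the G328V range. The low end of that range, in G328V replicate 3, is 3 counts, which is at the floor. The log2 difference of -2.78 (SE 2.23) became 1.64 without WT replicate 1. A gene annotated on the other strand, Atg4a-ps, overlaps exons of Syt6.

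Syt3, on the plus strand at chr7:44384102-44400187, had 0.641, 0.166 and 0.734 CPM in G328V replicates 1, 2 and 3, against 2.48, 0.335 and 0.230 in WT replicates 1, 3 and 70A. Its log2 difference of -0.98 (SE 1.33) became 0.85 without WT replicate 1. Syt5, on the minus strand at chr7:4539765-4547541, had 4, 62 and 44 counts in G328V replicates 1, 2 and 3, against 165, 65 and 0 counts in WT replicates 1, 3 and 70A. Both genes thus had their highest value in WT replicate 1 and overlapping groups. The log2 difference of Syt5 was -1.14 (SE 2.11) over all libraries and 0.47 without WT replicate 1.

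Syt17, also known as the B/K protein, lacks the transmembrane segment typical of the family and is found at the Golgi and in traffic to the cell surface. On the minus strand at chr7:118380717-118448222, it had 2.81, 6.21 and 1.54 CPM in G328V replicates 1, 2 and 3, against 0.244, 5.89 and 1.38 in WT replicates 1, 3 and 70A. Here WT replicate 1 was the lowest library, unlike for the 6 members that had their highest value there, and the groups overlapped. The log2 difference was 0.49 (SE 1.24), -0.21 without G328V replicate 2, -0.07 without WT replicate 1 and 2.08 without WT replicate 3.

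**Figure D2:**
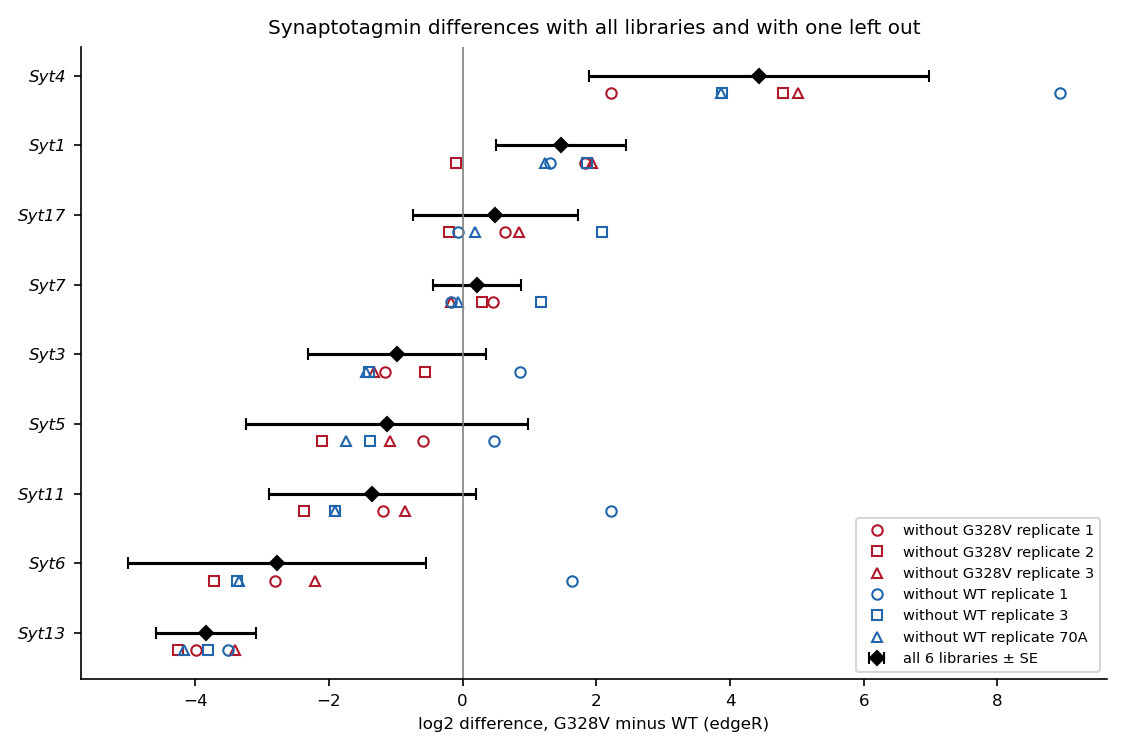
Log2 difference in CPM, G328V minus WT, of each tested synaptotagmin with its standard error (black diamonds and bars), and the values of fits that leave out 1 library (open symbols, red for a G328V and blue for a WT library). Syt13 (-3.84) stays below 0 throughout, and Syt4 stays above 0, while Syt11 reaches both -2.38 and 2.23.

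Over the 9 tested members the median log2 difference was -0.98, with 4 positive and 5 negative, beside a median of -0.0039 over all 14643 genes with 7275 positive and 7368 negative. Without WT replicate 1 the median of the members was 0.85. Syt3, Syt5, Syt6, Syt9, Syt11 and Syt13 had their highest CPM in WT replicate 1. Of the 9 tested members 5 did so (55.6%), beside 3388 of all 14643 tested genes (23.1%).

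RefSeq windows were matched for 4 of the 6 members with their highest value in WT replicate 1. A start region of each, Syt3, Syt6, Syt9 and Syt11, is shown. That pattern was read from these same libraries and is shared by 23.1% of tested genes, and no link between sequence and level was tested. The windows of Syt1, the other matched member, are not shown. They held no GGCGCC and had a GC content of 56.7% and 44.0%. The windows run from 250 bases before to 50 bases after the annotated start (RefSeq, GRCm38.p6) and are written along the strand of the gene. Capitals mark GGCGCC, a GC-rich sequence bound by SMAD proteins downstream of BMP receptors, which reads the same on both strands. The windows lie at chr7:44383876-44384175 (plus, Syt3), chr3:103574995-103575294 (plus, Syt6, the first of 3 annotated starts), chr7:107370540-107370839 (plus, Syt9) and chr3:88772550-88772849 (minus, Syt11). The span given above for Syt11 begins at 88775164 on the minus strand, so its window marks a different start, inside that span.
Syt3: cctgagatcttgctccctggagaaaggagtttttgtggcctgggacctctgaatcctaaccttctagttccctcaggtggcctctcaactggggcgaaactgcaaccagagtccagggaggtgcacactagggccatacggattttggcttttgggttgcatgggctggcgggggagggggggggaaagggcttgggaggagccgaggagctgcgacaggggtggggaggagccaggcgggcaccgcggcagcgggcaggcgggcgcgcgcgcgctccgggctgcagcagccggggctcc
Syt6: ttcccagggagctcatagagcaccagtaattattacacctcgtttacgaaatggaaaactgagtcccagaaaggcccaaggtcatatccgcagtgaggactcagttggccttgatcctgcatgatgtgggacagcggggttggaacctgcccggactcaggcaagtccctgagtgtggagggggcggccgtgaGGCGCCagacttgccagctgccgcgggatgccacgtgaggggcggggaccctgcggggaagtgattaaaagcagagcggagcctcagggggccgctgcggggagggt
Syt9: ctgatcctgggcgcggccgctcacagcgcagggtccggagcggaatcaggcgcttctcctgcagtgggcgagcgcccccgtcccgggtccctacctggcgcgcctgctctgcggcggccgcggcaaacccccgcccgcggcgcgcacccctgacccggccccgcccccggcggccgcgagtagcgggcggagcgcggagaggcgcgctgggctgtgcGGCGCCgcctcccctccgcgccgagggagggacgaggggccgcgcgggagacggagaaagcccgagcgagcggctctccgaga
Syt11: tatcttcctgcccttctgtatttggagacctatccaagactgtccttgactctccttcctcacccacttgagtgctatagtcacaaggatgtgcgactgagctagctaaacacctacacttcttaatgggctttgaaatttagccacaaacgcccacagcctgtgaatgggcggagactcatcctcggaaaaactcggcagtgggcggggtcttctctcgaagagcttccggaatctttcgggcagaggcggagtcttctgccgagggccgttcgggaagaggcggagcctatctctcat
GGCGCC began 57 bases before the start in this window of Syt6 and 33 bases before it in the window of Syt9, and these letters are not in the windows of Syt3 and Syt11 nor in 1 of the 3 windows of Syt6. The GC content was 66.3%, 61.0%, 79.3% and 53.0% in the windows shown of Syt3, Syt6, Syt9 and Syt11, beside a median of 52.7% over all 32851 windows. Over all 10 members RefSeq windows were matched for 5, 8 windows in all, of which 3 windows of 2 members held GGCGCC, beside 11.9% of all windows. Of those 3 windows, 2 are windows of Syt6 that overlap, and 1 site is counted in both, 57 and 94 bases before their starts. The cAMP response element TGACGTCA was in 0 of these 8 windows and in 1.79% of all. Such matches are a description of letters and show no binding.

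Per kilobase of exon, which allows levels to be compared between genes, the order by the mean of all 6 libraries was Syt4, Syt7, Syt11, Syt13, Syt1, Syt6, Syt17, Syt3, Syt5 and Syt9 among the members. Syt4 led with a mean of 78.7 CPM per kb, in a range of 0.276 to 386. Syt7 followed with 28.3 CPM per kb in a narrower range of 11.1 to 52.2. The order differed by group. In G328V the highest means were Syt4 at 150, Syt7 at 30.4, Syt11 at 6.05, Syt1 at 1.97 and Syt13 at 1.28 CPM per kb. In WT they were Syt7 at 26.3, Syt13 at 18.3, Syt11 at 15.4 and Syt4 at 6.97 CPM per kb. Syt4 was above Syt7 in only 3 of the 6 libraries, so their order is not settled by the means. Syt7 was above Syt11 in 5 libraries, and Syt11 was above Syt13 in 4. Syt6 was above Syt17 in 1 library although its mean was higher, 0.871 against 0.864 CPM per kb. The SD over 3 libraries was 12.9 in G328V and 22.6 in WT for Syt7, and 0.805 in G328V and 8.49 in WT for Syt13.

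**Figure D3:**
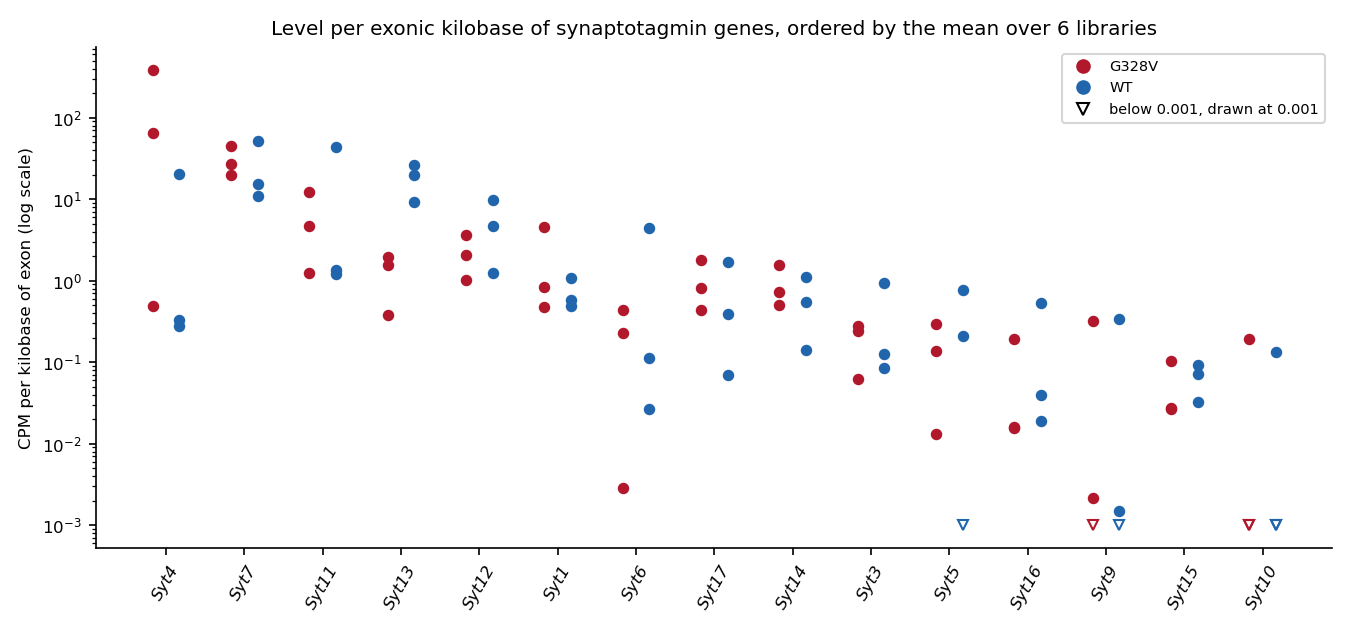
CPM per kilobase of exon of the synaptotagmin genes on a log axis, ordered by their mean, with 1 point for each library (G328V red, WT blue, open triangles below 0.001, Syt2 and Syt8 not drawn). Syt4 has the highest mean (78.7) and spans 0.276 to 386, whereas Syt7 stays between 11.1 and 52.2.

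The make-up of the family differed from culture to culture. Of the level per kilobase summed over all 17 genes, Syt4 made up 92.2% in G328V replicate 1 and 56.2% in G328V replicate 2. Syt7 made up 86.3% in G328V replicate 3. Syt11 led in WT replicate 1 with 36.4%, and Syt7 led in WT replicates 3 and 70A with 66.9% and 47.3%. Syt13 made up 0.368%, 1.68% and 0.729% in G328V replicates 1, 2 and 3, against 21.8%, 25.1% and 28.4% in WT replicates 1, 3 and 70A. It was thus the second most abundant synaptotagmin in each WT library and in none of the G328V libraries.

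The 7 other synaptotagmin genes of the table were weaker or as variable. Syt12, a member without calcium binding that is a target of protein kinase A, had 12.9, 3.63 and 7.36 CPM in G328V replicates 1, 2 and 3, against 34.9, 4.46 and 16.8 in WT replicates 1, 3 and 70A (log2 difference -1.23, SE 0.84, and -0.43 without WT replicate 1). Syt14 had 6.85, 4.68 and 14.4 CPM in the G328V libraries, against 10.3, 1.32 and 5.17 CPM in the WT libraries (0.63, SE 0.87, with 0.04 without G328V replicate 3 and 1.39 without WT replicate 1). The groups overlapped for both. Syt15 had 0.111 to 0.432 CPM in G328V and 0.136 to 0.390 CPM in WT. Syt16 had 0.128, 1.58 and 0.131 CPM in the G328V libraries, against 4.33, 0.153 and 0.322 CPM in the WT libraries (log2 difference -1.39, and 1.32 without WT replicate 1). Syt2, Syt8 and Syt10 had at most 43 counts in any library. EdgeR and DESeq2 called 0 of the 4 tested, of which 0 had an unadjusted p under 0.05 in edgeR and Syt16 got no adjusted p from DESeq2. Their median log2 difference was -0.78 over all libraries and 0.65 without WT replicate 1.

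The similarity of patterns was described by Pearson's r of log2 CPM over the 6 libraries among 8863 genes averaging at least 10 CPM. The values are the highest of that many candidates over few libraries, and the points share library and depth. The closest gene to Syt13 was Sik3, a salt-inducible kinase (r = 0.985), with 85.4, 84.2 and 62.6 CPM in G328V replicates 1, 2 and 3, against 195, 148 and 134 in WT replicates 1, 3 and 70A. The next was Mul1, a mitochondrial ubiquitin ligase (r = 0.977). For Syt4 they were Chid1 (r = 0.990) and Elovl4 (r = 0.980), for Syt7 Slc25a22 (r = 0.996) and Shcbp1 (r = 0.985), and for Syt11 Zfp60 (r = 0.991) and Pex13 (r = 0.988).

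**Figure D4:**
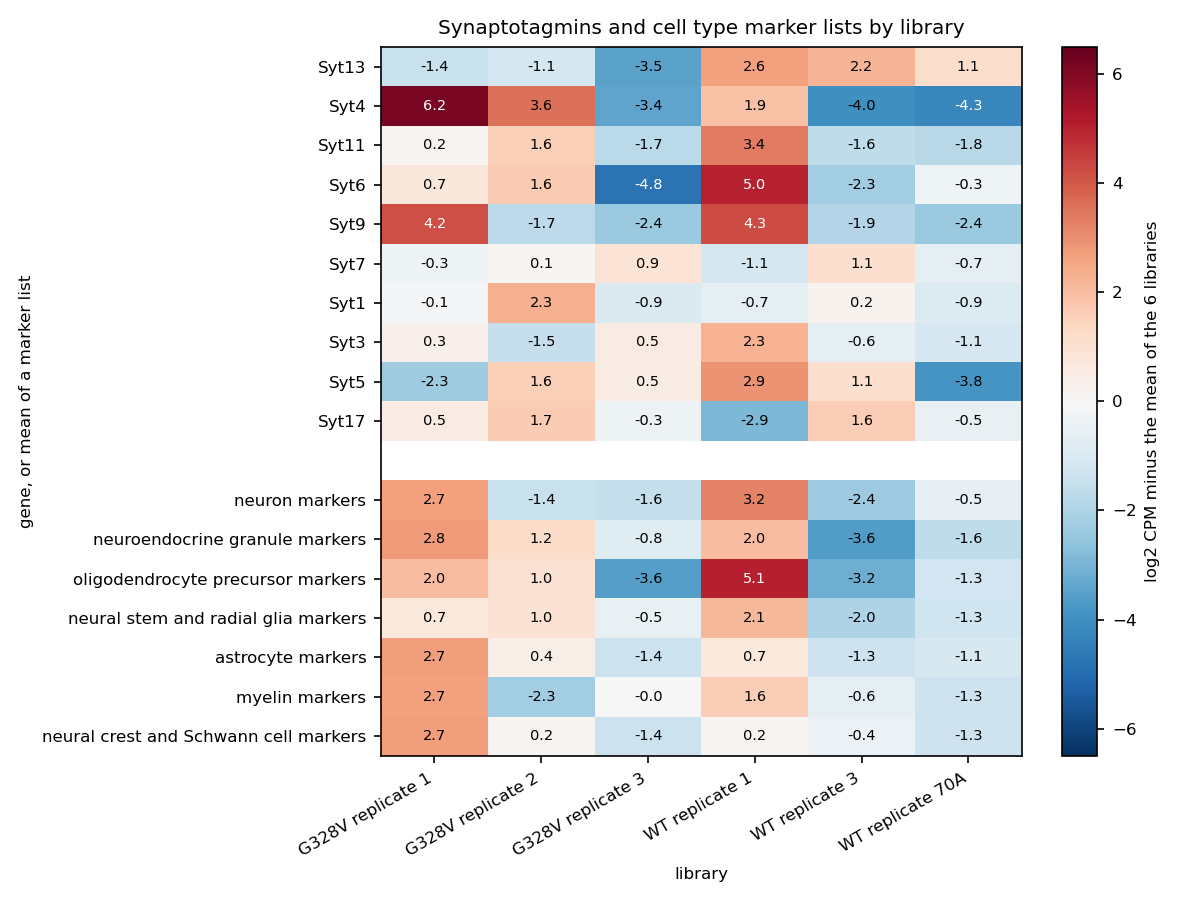
Log2 CPM of the 10 synaptotagmins, and of marker lists as the mean of their genes, in the 6 libraries, each centred on its own mean over the libraries, with G328V libraries left of WT libraries. Syt13 is below its mean in the 3 G328V libraries and above it in the 3 WT libraries, whereas Syt4 is at 6.2 in G328V replicate 1 and at -3.4 in G328V replicate 3.

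Genes of the machinery on which synaptotagmins act are given as lists, and edgeR called 0 members of each. Of 18 tested SNARE genes, which encode the fusion proteins, 8 had a positive and 10 a negative log2 difference (median -0.14, with -0.30 without G328V replicate 2 and 0.03 without G328V replicate 3). Snap29, a SNARE of endosomes and autophagosomes, had 25.7, 20.4 and 18.6 CPM in G328V replicates 1, 2 and 3, against 46.3, 40.8 and 36.4 in WT replicates 1, 3 and 70A (log2 difference -0.93, SE 0.27). Stx2, a plasma membrane syntaxin, had 11.8, 22.0 and 15.5 CPM in the G328V libraries, against 33.6, 30.1 and 29.9 CPM in the WT libraries (-0.92, SE 0.33). For both, every G328V library lay below every WT library, which occurred in 4.45% of all genes. For 1 SNARE gene, the vesicle SNARE Vamp1, named after its values were seen, every G328V library lay above every WT library, which occurred in 5.25% of all genes. Vamp1 had a mean of 2.50 ± 1.02 CPM in G328V and 1.22 ± 0.469 CPM in WT (SD, n = 3 each), and a log2 difference of 1.04 (SE 0.83). Stx12, an endosomal syntaxin, stood at 53.1 ± 14.7 CPM in G328V and 83.2 ± 33.8 CPM in WT (SD, n = 3 each) with overlap.

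Of 30 tested SNARE regulators, priming and active zone genes, 16 were positive and 14 negative (median 0.08, with -0.13 without G328V replicate 1 and 0.41 without WT replicate 1). Rims2, an active zone scaffold that tethers calcium channels, had 32.3, 77.3 and 56.3 CPM in G328V replicates 1, 2 and 3, against 14.2, 2.97 and 20.1 in WT replicates 1, 3 and 70A (log2 difference 2.15, SE 0.74). Erc2, another active zone scaffold, had 2.69, 3.38 and 1.54 CPM in the G328V libraries, against 10.3, 6.22 and 8.55 CPM in the WT libraries (-1.72, SE 0.60). The groups did not overlap for either gene, Rims2 being 1 of 30 higher in G328V, beside 5.25% of all genes, and Erc2 1 of 30 lower, beside 4.45%. DESeq2 called Erc2 (adjusted p = 0.0438), as it did 1.05% of all genes, and not Rims2 (adjusted p = 0.243). Ppfia1, a liprin scaffold, stood at 112 ± 48.3 CPM in G328V and 75.6 ± 5.89 CPM in WT (SD, n = 3 each).

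Of 21 tested genes of the vesicle membrane 15 were positive and 6 negative (median 0.47, and 0.20 without G328V replicate 1 or 1.10 without WT replicate 1), and the groups overlapped in all of them, where they did not in 5.25% of all genes with G328V higher and 4.45% with G328V lower. The mean of Syngr3, a synaptogyrin, was 3.11 ± 1.64 CPM in G328V and 1.10 ± 0.635 CPM in WT (SD, n = 3 each). That of Rab27a, a GTPase of secretory granules, was 2.89 ± 2.35 CPM in G328V and 0.948 ± 0.939 CPM in WT (SD, n = 3 each). Rab3b, a vesicle GTPase, had 20.4, 10.3 and 15.9 CPM in G328V replicates 1, 2 and 3, against 244, 0.932 and 2.96 in WT replicates 1, 3 and 70A. Its log2 difference of -2.41 (SE 1.86) became 2.98 without WT replicate 1, the library without which Syt6 and Syt11 also changed sign.

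Of 24 vesicle retrieval genes 6 were positive and 18 negative (median -0.29, within -0.42 to -0.16 without 1 library), and for 3 of them, Synj1, Itsn1 and Sh3gl3, every G328V library lay below every WT library, beside 4.45% of all genes. The endocytic phosphatase Synj1 had a mean of 27.4 ± 5.44 CPM in G328V and 38.7 ± 0.293 CPM in WT (SD, n = 3 each). The endocytic scaffold Itsn1 had a mean of 49.2 ± 13.9 CPM in G328V and 78.9 ± 15.4 CPM in WT (SD, n = 3 each). Sh3gl3, an endophilin named after its values were seen, had a mean of 1.96 ± 1.31 CPM in G328V and 5.27 ± 0.526 CPM in WT (SD, n = 3 each). Amph, an adaptor that recruits dynamin, had a log2 difference of -2.34 (SE 1.13), and -0.59 without WT replicate 1.

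Of 15 partners in lysosomal exocytosis and membrane repair, the setting in which Syt7 acts, 6 were positive and 9 negative (median -0.07, with -0.35 without WT replicate 1 and 0.07 without WT replicate 3). Lamp1, a lysosomal membrane protein, was at 513 ± 70.3 CPM in G328V and 816 ± 426 CPM in WT (SD, n = 3 each). Anxa5, an annexin, was at 516 ± 122 CPM in G328V and 832 ± 462 CPM in WT, and S100a10, which binds annexins, was at 351 ± 213 CPM in G328V and 200 ± 93.0 CPM in WT (SD, n = 3 each). All 3 had overlapping groups. Of 13 tested synaptotagmin-like, extended synaptotagmin and related C2-domain genes 5 were positive and 8 negative (median -0.43, with -0.71 without G328V replicate 3 and 0.16 without G328V replicate 2). Esyt3, an extended synaptotagmin, had a log2 difference of 2.49 (SE 1.49), Sytl5, a synaptotagmin-like protein, one of 1.25 (SE 1.14), and Mctp2, a multiple C2-domain protein, one of -1.96 (SE 1.80). Esyt3 was at 0.77 without G328V replicate 1, Sytl5 was at 2.15 without WT replicate 1 and at 0.72 without WT replicate 3, and Mctp2 was at -0.70 without WT replicate 70A.

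Cell type markers also varied between libraries, and sums below are over all markers of a list in the table. The 6 of 7 oligodendrocyte precursor markers that were tested summed to 13.7 to 236 CPM in the G328V libraries and 50.2 to 2053 CPM in the WT libraries, with the maximum in WT replicate 1. Of the 6, 4 had their highest value in that library. Pdgfra was lowest there, at 9.65 CPM against 46.3 and 64.2 in WT replicates 3 and 70A. Cspg4 had 3.27 CPM there, against 3.67 and 40.7 in those libraries. The median log2 difference of the 6 was -3.48, and 2.40 without WT replicate 1. The 9 of 12 tested neuron markers had a median log2 difference of -0.56, with -2.66 without G328V replicate 1 and 2.08 without WT replicate 1, and the list summed to 21.7 to 383 CPM in G328V and 89.8 to 303 CPM in WT. The 9 of 10 tested neuroendocrine granule markers had a median of 1.04, with 3.98 without WT replicate 1 and 0.09 without WT replicate 70A, and the list summed to 733 to 1289 CPM in G328V and 630 to 1091 CPM in WT. Among them Scg2, a granin of dense-core vesicles, had 519, 239 and 32.6 CPM in G328V replicates 1, 2 and 3, against 12.3, 0.392 and 1.13 CPM in the WT libraries, and was highest in the same library as Syt4. Pcsk2, a prohormone convertase, had 1.28, 15.4 and 2.19 CPM in the G328V libraries, against 0.171, 0.477 and 0.304 CPM in the WT libraries, and was highest in G328V replicate 2, unlike Syt4. For both, 2 of the 9 tested, every G328V library lay above every WT library, beside 5.25% of all genes. DESeq2 called both (adjusted p = 0.00363 for Scg2 and 0.0105 for Pcsk2), as it did 1.05% of all genes. Of the 9 log2 differences, 5 were positive and 4 negative. The negative ones were Scg3 at -2.98, Chga at -1.004, Cpe at -0.284 and Pcsk1 at -0.153, all with overlapping groups.

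The 9 tested neural stem cell markers had a median of -0.09, with -0.73 without G328V replicate 2 and 2.35 without WT replicate 1, and the list summed to 2394 to 3788 CPM in G328V and 2332 to 5383 CPM in WT. Prom1, the stem cell surface protein CD133, had 133, 288 and 190 CPM in the G328V libraries, against 68.8, 10.2 and 7.92 CPM in the WT libraries (log2 difference 2.81, SE 0.93). It was 1 of the 9 with every G328V library above every WT library, beside 5.25% of all genes. Of the 9 log2 differences, 3 were positive and 6 negative. Among the negative ones, Fabp7 was at -4.14 (SE 3.04) and Nes at -0.999 (SE 0.974), both with overlapping groups. Without WT replicate 1 Fabp7 was at 6.02 and Nes at 0.911. Astrocyte, myelin, and neural crest and Schwann cell markers had medians of 1.34, 0.90 and 0.64. Leaving out 1 library gave up to 2.46 for the astrocyte median, without WT replicate 1. It gave -1.15 without G328V replicate 1 and 3.64 without WT replicate 1 for the myelin median. For the neural crest and Schwann cell median it gave 0.03 without G328V replicate 1 and 2.58 without WT replicate 3. DESeq2 called Apoe, a lipoprotein of astrocytes (adjusted p = 0.0382), and Tfap2b, a neural crest factor (adjusted p = 2.33e-04), in these lists, as it did 1.05% of all genes. Apoe had 53.5, 32.5 and 1.25 CPM in G328V replicates 1, 2 and 3, against 0.886, 0.813 and 2.95 in WT replicates 1, 3 and 70A. Tfap2b had 190, 29.97 and 0.0218 CPM in the G328V libraries, against 0.26, 0.0284 and 0.0115 CPM in the WT libraries. For both the groups overlapped, with G328V replicate 3 below the highest WT library. Endothelial and fibroblast markers had medians of 0.27 and 0.67. The endothelial median was -0.75 without G328V replicate 1 and 0.64 without WT replicate 1, and the fibroblast median was -2.40 without G328V replicate 2, 0.09 without WT replicate 1 and 2.95 without WT replicate 70A. The 4 of 8 microglia and macrophage markers in the table summed to at most 2.15 CPM in G328V and 1.27 CPM in WT, and Aif1, Tyrobp, C1qa and C1qb were not analysed here. Their median over 3 tested genes was 0.63, with -1.67 without G328V replicate 1, 0.06 without WT replicate 1 and 2.36 without WT replicate 3. The part of any of these cell types in the synaptotagmin levels was not tested.

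A readout that the choice of genes did not use is the number of deposited counts for each fragment estimated in the second table. For the 5 members with at least 20 fragments in every library this ratio lay between 1.67 and 1.996. Syt13 had 1.97 ± 0.0239 counts per fragment in G328V and 1.98 ± 0.0173 in WT (SD, n = 3 each, two-sided exact permutation p = 1.0). Over these 5 genes the adjusted p was 0.5 to 1.0, where 3 against 3 libraries cannot go below an unadjusted 0.1. A difference in how Syt13 or another member was counted in the groups was therefore not detectable. Syt7 was at that limit (two-sided exact permutation p = 0.1). It had 1.968 ± 0.0026 counts per fragment in G328V and 1.963 ± 0.0051 in WT (SD, n = 3 each). The median over 8924 genes was 1.95 to 1.96 in every library.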

How the data were processed

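The authors deposited an HTSeq table of whole-number gene counts, with no normalization visible in the values. They also deposited estimated counts of fragments from Cufflinks, rounded to whole numbers for the 1 fit that used them. Per the submitters' processing notes, the build was mm10 and the tools include FastQC 0.11.3, TopHat2 2.0.13 and Bowtie2 2.2.1. No label or header gives the counting settings. Per the labels, libraries were stranded, and both a TruSeq and a Pico kit are named without a division of libraries between them, so any effect of kit was not tested. The 10 genes and all gene and marker lists were chosen with earlier results of these data known.

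G328V was compared with WT in R 4.3.3 by edgeR 4.0.16 (quasi-likelihood F-test, TMM, filterByExpr with a minimum count of 10, no covariate), with Benjamini-Hochberg adjustment over all genes at an FDR of 0.05. On counts simulated from these libraries with no gene changed, drawn with the spread that edgeR had fitted, edgeR and limma made no call and DESeq2 made false calls. With changed genes edgeR missed most of the smaller ones. Recovery by DESeq2 and limma is not given here, so the simulation does not rank the tests. DESeq2 1.42.0, limma 3.58.1, other scalings and filters, a replicate block and leaving out each library were alternatives. CPM used TMM-scaled totals, and log2 CPM a prior count of 2. Exon lengths and gene positions came from GENCODE annotation of GRCm38. Named genes were taken from all listed synaptotagmins, the other synaptotagmins, up to 3 genes of each list with the smallest unadjusted p, and the 2 genes most like each member averaging at least 10 CPM. Sox2, Olig1, Acvr1, Xist and Ddx3y were added as checks of the libraries.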

Additional observations from a re-analysis of the deposited data

How the results depend on the processing

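EdgeR called 0 genes under every alternative run with it, limma-voom called 0, and DESeq2 called 173 genes and 1 member, Syt13. Leaving out each library, an alternative chosen after seeing the data for DESeq2, gave 1 to 2 members called and 272 to 727 genes. Syt4 was added without WT replicate 1, where 727 of 17038 genes were called. Syt13 kept its direction in all 15 alternatives (-4.89 to -3.40). Syt4, Syt12 and Syt14 also kept theirs, with Syt4 at 2.22 to 8.94. By limma-voom Syt5 was 0.48 and Syt11 was 0.11, and the median of the members was 0.45. On the Cufflinks table Syt15 was 0.14. With the replicate block Syt1 was -0.30. Leaving out 1 library gave -0.10 to 1.93 for Syt1, -1.45 to 0.85 for Syt3, -2.11 to 0.47 for Syt5, -3.72 to 1.64 for Syt6, -0.18 to 1.18 for Syt7, -2.38 to 2.23 for Syt11, -0.21 to 2.08 for Syt17 and -3.62 to 1.32 for Syt16. The cause was not tested. Scaling by total counts shifted the median of all genes by 0.12 on the log2 scale and turned no member. Replicate numbers 1 and 3 occur in both groups, with correlations of 0.18 and 0.23 between deviations of same-numbered libraries. Pairs with different numbers had correlations of -0.32 to 0.20. With only 2 numbers shared, whether a number marks a shared origin or batch cannot be told. EdgeR called 0 genes with the block. In that fit G328V replicate 2 and WT replicate 70A are each alone in a block. The difference then comes from replicates 1 and 3 only, too few for the lack of calls to decide anything. Among the members only Syt5, Syt6 and Syt9 had libraries with 4 or fewer counts, while Syt3 and Syt17 had as few as 20 and 30. What part the spread between cultures and the depth had in these values was not tested.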
